A study of Mus musculus with 8 samples.

Results

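CBE line 2 is 1 of 4 mouse pro-B cell lines, and its RNA was set against that of the other 3. A gene was kept when its value in both line 2 libraries lay above, or in both lay below, its value in each of the 6 libraries of CBE line 1, the WT line and the line without Eµ, with chromosomes X and Y left out. Of 22821 autosomal genes, 2649 were kept, 1746 higher and 903 lower in line 2. Of the kept genes, 1922 passed a filter on low values (at least 2 libraries at 1 FPKM or above), and 575 higher and 152 lower genes lay below it. By the gap between the nearest line 2 library and the nearest other library, the higher side was led by Hoxa11os, 2610524H06Rik, Hoxa11, Cpe and Kctd15, and the lower side by Slamf6, Slc2a3, Carhsp1 and Lcp2.

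The 4 lines are untreated cells of strain 129SV from bone marrow, with 2 libraries each. The WT line carries no named deletion, both CBE lines are labelled IGCR1-/-, and the fourth line lacks the enhancer Eµ. IGCR1 is a regulatory stretch of the immunoglobulin heavy chain (IgH) locus, lying upstream of its D segments, that works through CTCF-binding elements (CBEs), and Eµ is the enhancer in an intron of the same locus. Line 2 is a single line, so what its deletion does and what the line carries by descent cannot be told apart. With the line as the unit (1 line mean against 3), limma called 0 genes, and 348 had an unadjusted p under 0.05. Whether paired libraries of a line stem from different cultures is unstated in the labels, so the p-values below measure a spread between libraries that may be technical.

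Pro-B cells are the precursors in which the heavy chain locus is assembled from V, D and J segments by the RAG recombinase. They are marked by the B lineage factors Pax5 and Ebf1, by the surrogate light chain genes Vpreb1 and Igll1 and by the interleukin 7 receptor. HOXA transcription factors belong to blood stem and progenitor cells and are usually silenced as B cells mature, and SLAM receptors are surface proteins through which blood cells signal to each other.

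Expression was deposited as FPKM, fragments per unit of transcript length and of mapped reads. The confidence intervals in the files imply 31.3 to 49.5 M reads per library, and 33.0 and 35.5 M in line 2. Pearson's r of log2(FPKM + 1) across genes was 0.991 between the line 2 libraries and 0.935 to 0.964 between them and the libraries of other lines, a description over genes that are not independent. All 11 pro-B markers passed the filter, and their summed level in line 2 was 2881 and 3106 FPKM, inside the range of 2683 to 3929 in the other lines. Cd79a, a chain of the B cell receptor complex, was at 754 and 779 FPKM in line 2. Rag1 was at 8.72 and 3.77 FPKM in line 2 and at 0.0427 and 0.0295 FPKM in WT, which was the lowest line for both Rag genes.

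None of 5 T cell markers passed the filter in any line, and Cd3e, Cd4 and Cd8a were at 0 FPKM in all 8 libraries. The 4 NK markers summed to 3.12 and 3.31 FPKM in line 2 and to 0.738 to 2.54 FPKM in the others, with Ncr1 at 0 in all 8. Klrd1 was at 2.22 and 2.19 FPKM in line 2 and at 0.793 FPKM or less elsewhere. Klrb1c was at 1.09 and 0.913 FPKM in line 2, below WT (1.76 and 2.39 FPKM) and above line 1 and the Eµ-deleted line (0.388 to 0.774 FPKM). The 23 genes of the wider NK list summed to 5.33 FPKM in both line 2 libraries and to 5.37 to 8.12 FPKM elsewhere. The 5 myeloid markers summed to 1.61 and 2.42 FPKM in line 2 and to 2.01 to 8.85 FPKM elsewhere, with Mpo at 0 in line 2. They did not move together. Lyz2 was at 0.749 and 0.440 FPKM in line 2 against 1.40 to 7.19 FPKM. Itgam was at 1.66 and 1.17 FPKM in line 2, at 1.65 and 1.22 FPKM in line 1 and at 0.616 FPKM or less in WT and the Eµ-deleted line. The 4 red cell markers summed to 0.103 and 0.132 FPKM and the 5 stromal markers to 0.0263 and 0.0382 FPKM in line 2, with Hbb-b1, Hba-a1 and Dcn at 0.

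Each of the 4 sequences that follow is the stretch of 250 bases before a gene's start in the RefSeq promoter table, printed 5′ to 3′ on the gene's strand with CG dinucleotides in capitals. Those of Hoxa11, Hoxa10 and Hoxa9 are shown because these genes were read out in line 2 alone, and that of Slamf6 because it had the widest gap on the lower side. Their coordinates are those of GRCm38.p6 and not those of mm9, which the expression tables use.
Hoxa11, chr6:52245811-52246060, minus strand: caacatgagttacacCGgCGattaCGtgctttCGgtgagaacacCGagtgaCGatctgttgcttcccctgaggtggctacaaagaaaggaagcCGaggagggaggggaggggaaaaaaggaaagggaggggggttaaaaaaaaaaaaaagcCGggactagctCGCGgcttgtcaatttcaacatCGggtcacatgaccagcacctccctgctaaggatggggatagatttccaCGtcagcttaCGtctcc
Hoxa10, chr6:52240855-52241104, minus strand: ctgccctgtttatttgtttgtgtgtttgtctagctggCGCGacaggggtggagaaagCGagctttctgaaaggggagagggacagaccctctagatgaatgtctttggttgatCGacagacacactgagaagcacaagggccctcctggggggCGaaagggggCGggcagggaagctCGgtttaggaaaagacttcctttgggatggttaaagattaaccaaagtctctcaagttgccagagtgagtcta
Hoxa9, chr6:52227371-52227620, minus strand: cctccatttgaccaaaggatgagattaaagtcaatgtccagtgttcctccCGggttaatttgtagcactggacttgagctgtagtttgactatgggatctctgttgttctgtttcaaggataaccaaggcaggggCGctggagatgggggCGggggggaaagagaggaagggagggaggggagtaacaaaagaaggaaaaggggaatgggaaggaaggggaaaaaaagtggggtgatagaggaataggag
Slamf6, chr1:171917212-171917461, plus strand: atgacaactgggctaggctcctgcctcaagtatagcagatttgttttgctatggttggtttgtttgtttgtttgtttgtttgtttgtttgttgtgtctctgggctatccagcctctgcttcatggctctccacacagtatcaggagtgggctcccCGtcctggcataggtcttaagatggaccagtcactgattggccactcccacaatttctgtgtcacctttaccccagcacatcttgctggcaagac
CG reads the same on both strands, and 91.7% of the 27025 promoters of the table hold at least 1 in this window, with a median of 6. Hoxa10 has 2 entries in the promoter table, and only the first is shown and counted. The windows hold 13 CG in Hoxa11, 7 in Hoxa10, 3 in Hoxa9 and 1 in Slamf6, and 68.2, 53.5, 29.6 and 8.26% of the promoters hold fewer. The 3 HoxA windows thus run from poor to moderately rich in CG, while the Slamf6 window is among the poorest. These counts describe the letters only, and no binding or methylation was measured.

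Among genes passing the filter the rule kept 1171 higher genes, 11.5% of 10146, and 751 lower genes, 7.4%. A limma contrast of line 2 with the mean of the 3 other line means, on log2(FPKM + 1), called 786 genes higher (7.75%) and 612 lower (6.03%) at an adjusted p threshold of 0.05, 13.8% in all. Of these calls 503 were of genes outside the rule, since 1 or 2 of the other lines lay beyond line 2 or beside it. Kept and called were 518 higher genes (5.11%) and 377 lower genes (3.72%). The call reads the same values as the rule, so for a kept gene it describes the size of the difference beside the spread between libraries. Leaving out a line 2 library lowered the 1398 calls to 380 (without replicate 1) and 337 (without replicate 2), and leaving out a WT library lowered them to 850 and 831. A fit with the replicate number as a block raised them to 2301. Quantile scaling gave 771 higher and 876 lower calls, and changed the kept genes to 1086 higher and 1025 lower. With a mean of 5 FPKM or more there were 294 higher and 285 lower calls, and 777 higher and 556 lower kept genes. The excess of higher genes thus depends on the scaling and, for the calls, on the filter. Of the 1171 higher kept genes, 91 were under 1 FPKM in all 6 other libraries and passed the filter through line 2 alone.

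Most kept genes differed little. The median difference was 0.35 on the log2 scale for the higher and -0.43 for the lower genes, against 0.03 for all autosomal genes tested, and 183 higher and 91 lower genes reached a difference of 2-fold. The gap between the nearest line 2 library and the nearest of the other 6 was under 0.1 on the log2 scale for 565 of the higher and 353 of the lower genes. It was 1 or more for 69 higher and 20 lower genes, 2 or more for 18 and 5, and 3 or more for 6 and 1. At the edge of the rule, Txn2 was just inside at 153.4 FPKM in both line 2 libraries beside 153.4 in WT replicate 1, and Hipk1 was just outside at 24.9 FPKM in line 2 replicate 1 beside 24.9 in CBE line 1 replicate 2. On the lower side Zgpat was just inside, at 13.4 FPKM in line 2 replicate 1 and in WT replicate 1, and Cyp2c55, at 0 in line 2 and in CBE line 1, was just outside.

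**Figure D1:**
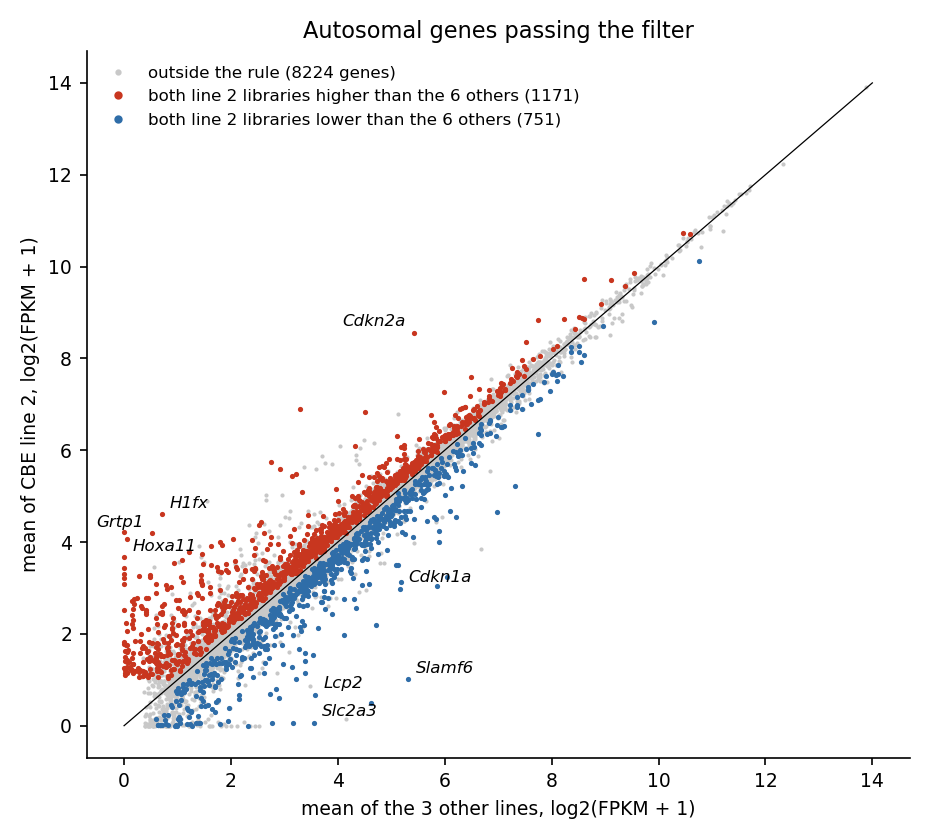
Mean log2(FPKM + 1) of CBE line 2 (vertical) against the mean of the 3 other lines (horizontal) for 10146 autosomal genes passing the filter, 1 point per gene, with the diagonal of equal values. The 1171 higher and 751 lower kept genes lie mostly close to the diagonal, and HoxA genes, H1fx, Grtp1, Slamf6, Slc2a3, Lcp2, Cdkn1a and Cdkn2a lie far from it.

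Line 2 showed 9 genes at 5 FPKM or more in both its libraries and under 0.5 FPKM in all 6 others, namely Hoxa10, Hoxa11, Hoxa11os, Cpe, Kctd15, Sh3bgrl2, Zfp783, Zfp951 and 2610524H06Rik. The reverse held for Slc2a3 alone. Among autosomal genes passing the filter, the HoxA genes were the longest run of neighbouring kept genes. From Hoxa5 to Hoxa11os on chromosome 6, between 52151753 and 52199768 of mm9, the 7 genes passing the filter were all higher and called. All 7 passed it through line 2 alone, so their shared direction was set by the filter and the run is a description. Hoxa6 and Mir196b in this interval were below the filter, and Mir196b was at 0 and 25.7 FPKM in the line 2 libraries and so was not kept.

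Hoxa11, which encodes a homeobox transcription factor of the 5′ side of the cluster, was at 10.9 and 12.6 FPKM in line 2, at 0 in 5 of the other libraries and at 0.00847 FPKM in Eµ replicate 2. Its difference from the other lines was 3.67 on the log2(FPKM + 1) scale (SE 0.08, adjusted p = 2.47e-06). Hoxa10, its neighbour, was at 6.80 and 8.23 FPKM in line 2 and at 0 in the 6 others. Both line 2 libraries thus stood clear of libraries that held almost no read of these genes. The limma fit pools the spread over all 4 lines, and a line at 0 in both libraries adds none. The SE and adjusted p of such genes, here and below, thus do not measure the spread between the line 2 libraries alone.

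Hoxa9, a factor of early haematopoietic progenitors, was at 3.91 and 5.75 FPKM in line 2 and at 0 in the 6 others (2.53, SE 0.12, adjusted p = 4.3e-05). Hoxa11os, transcribed from the strand opposite Hoxa11, was at 15.6 and 19.7 FPKM in line 2 and at 0 to 0.0115 FPKM elsewhere. The sources used here do not give the strand setting of the counting, so the shares of Hoxa11 and Hoxa11os in each other's value are uncertain. Leaving out any library of another line kept the calls of the 7 HoxA genes, and with a line 2 library left out they no longer pass the filter, as holds for all genes seen in line 2 alone.

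Levels were lower on the 3′ side of the cluster. Hoxa7 was at 1.32 and 1.21 FPKM and Hoxa5 at 1.37 and 1.89 FPKM in line 2, and in WT, the next highest line, at 0.164 and 0.0693 and at 0.138 and 0.0931 FPKM. The transcript Mira, which starts between Hoxa6 and Hoxa7, was at 3.61 and 3.63 FPKM in line 2, at 0.370 and 0.349 in WT and at 0 in the 4 remaining libraries. So WT held a low level of Hoxa5, Mira and Hoxa7 but none of Hoxa9, Hoxa10 and Hoxa11, and line 1 and the Eµ-deleted line were at 0 for these 6 apart from the single Hoxa11 value given above.

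Below the filter, Hoxa6 was at 0.645 and 0.923 FPKM, Hoxa4 at 0.470 and 0.346 FPKM, Hoxa3 at 0.479 and 0.517 FPKM and Hoxa2 at 0.0905 and 0.0728 FPKM in line 2. These 4 genes obeyed the rule as well. Hoxa13, the last gene on the 5′ side, was at 0 in all 8 libraries, and Hottip beyond it reached 0.00771 FPKM in 1 line 2 library.

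**Figure D2:**
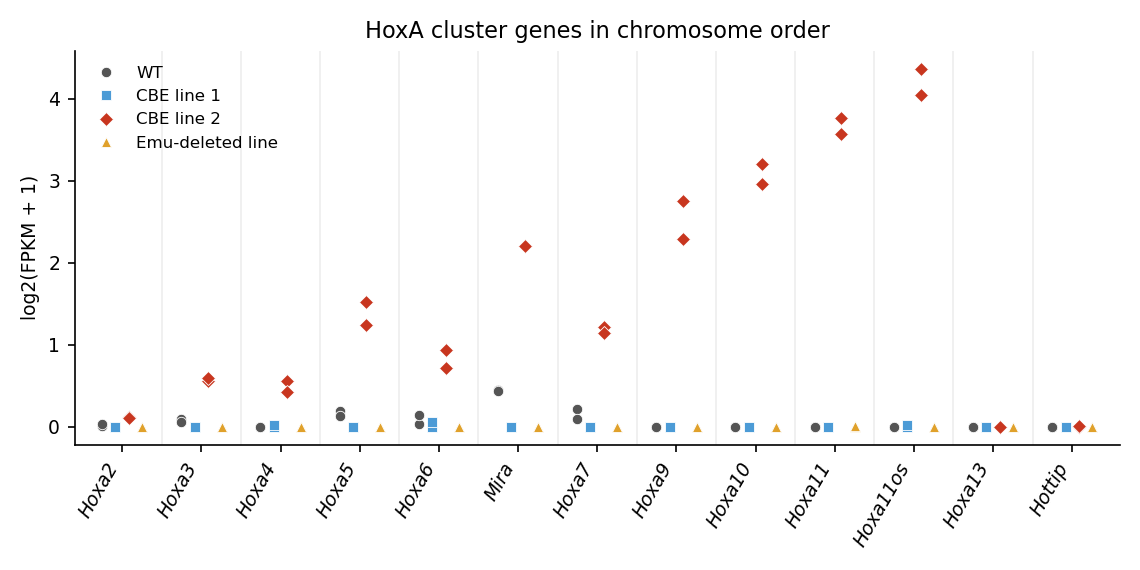
Log2(FPKM + 1) of the HoxA cluster genes (vertical) in chromosome order from Hoxa2 to Hottip, 1 point per library and 2 libraries per line. Line 2 (red) is highest from Hoxa9 to Hoxa11os, with Hoxa13 and Hottip at or near 0, and the other lines stay near 0 except for low WT values on the 3′ side.

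The HoxA genes made up most of the called genes of the stem and progenitor list. Of its 15 tested members 7 were called higher and 1 lower, with a median of 0.46, and 5 of the 7 are Hoxa5, Hoxa7, Hoxa9, Hoxa10 and Hoxa11. The others are Satb1 and Eya1, and the lower gene is Tal1, a factor of blood stem and red cell precursors. Without either line 2 library the list had 1 called gene, Satb1. The 5 HoxA genes then fall below the filter, and Eya1 (adjusted p = 0.158 and 0.0836) and Tal1 (0.164 and 0.145) miss the threshold. The shares of a list that were called are to be read beside the 13.8% over all autosomal genes tested. The share here, 53.3%, is partly built in, since the 5 HoxA genes passed the filter through line 2 alone. Such genes, in any list, could be tested only as higher ones.

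Outside the cluster, Cpe, which encodes the carboxypeptidase that trims prohormones, was at 9.97 and 9.70 FPKM in line 2 and at 0 in the 6 others (3.44, SE 0.06, adjusted p = 2.17e-06). Kctd15, a BTB domain protein, was at 8.63 and 9.08 FPKM in line 2 and at 0 in the 6 others. Ramp3, a partner protein of calcitonin-type receptors, was at 6.18 and 4.96 FPKM in line 2 and reached 0.221 FPKM elsewhere. Each of these genes separated the 2 line 2 libraries from all others by a gap above 2 on the log2 scale.

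Hs3st2, a sulfotransferase that modifies heparan sulfate, was at 8.10 and 8.79 FPKM in line 2, at 0.563 to 0.846 FPKM in WT and line 1, and at 0 and 0.0342 FPKM in the Eµ-deleted line. Ext1, a polymerase that builds heparan sulfate chains, went the other way, at 0.00546 and 0 FPKM in line 2 against 2.57 to 5.28 FPKM elsewhere (-2.31, SE 0.09, adjusted p = 1.57e-05). Grtp1, a TBC domain protein, was at 14.8 and 20.1 FPKM in line 2 and at 0.0152 to 1.90 FPKM in the others, with line 1 replicate 2 the highest of those. The call of Grtp1 held with any library left out, and so did that of Ext1.

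H1fx encodes the linker histone H1.X, which binds DNA between nucleosomes. It was at 22.8 and 23.9 FPKM in line 2, at 2.89 and 1.91 FPKM in WT, at 0.0154 and 0.0656 FPKM in line 1 and at 0.0977 and 0.370 FPKM in the Eµ-deleted line (3.90, SE 0.14, adjusted p = 1.13e-05). Line 2 was above and line 1 below WT. Its neighbour Hmces, a sensor of abasic DNA sites, was at 44.9 and 49.6 FPKM in line 2, at 26.9 and 41.7 in line 1, at 7.58 and 15 in the Eµ-deleted line and at 0.0916 and 0.0575 FPKM in WT. Copg1 and Rab7 on either side were also kept but differed by 0.20 and 0.15 on the log2 scale and were not called (adjusted p = 0.186 and 0.318).

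Chromosome 6 held 5 of the 23 runs of at least 3 neighbouring higher genes, and 18 of their 23 genes were called. The HoxA run gave 7 of these 18 calls, and 44.2% of all kept higher genes were called. In the run from 48539444 to 48610874, Gm5111 was at 8.82 and 8.28 FPKM in line 2 and at 0.022 to 1.06 FPKM elsewhere, and AI854703 at 4.83 and 5.73 against 0.541 FPKM or less. Repin1, a zinc finger protein of the same run, was at 17.9 and 19.3 FPKM in line 2 and at 4.20 to 12 FPKM elsewhere (1.12, SE 0.11, adjusted p = 0.000963). Zfp775 was called (0.35), but not without either WT library or either line 2 library (adjusted p = 0.0870, 0.0967, 0.161 and 0.325). Gimap8, the last gene of the run, was not called (adjusted p = 0.162, and 0.0174 with the replicate block).

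A cluster of zinc finger genes from 47827554 to 47915298 of chromosome 6 was uneven. Zfp783 was at 8.22 and 8.28 FPKM in line 2 and at 0.00828 FPKM or less in the 6 others (3.21, SE 0.06). Its neighbour Zfp956 was at 9.14 and 8.42 FPKM in line 2 and at 4.50 to 6.86 FPKM elsewhere, called with all libraries (adjusted p = 0.00947) but not without a line 2 library (0.132 and 0.0884). Zfp212 and Zfp282 were kept and not called, and Zfp777 beyond it was not kept, so the run holds 1 gene that was at or near 0 elsewhere and neighbours that differed little.

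**Figure D3:**
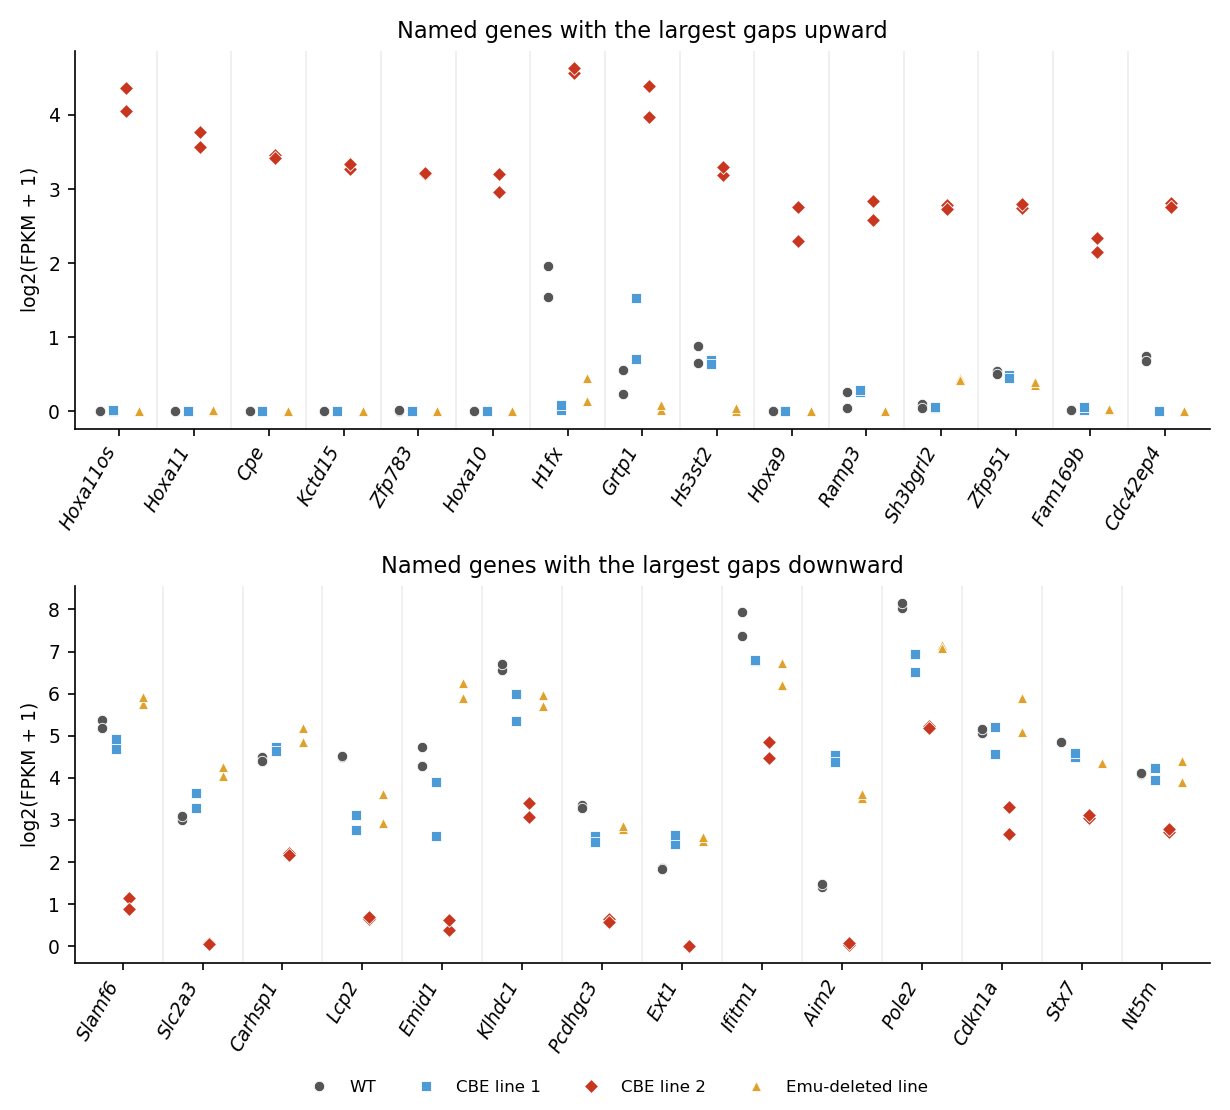
Log2(FPKM + 1) (vertical) of named genes with the widest gaps above (upper panel, 15 genes) and below (lower panel, 14 genes) the other lines, 1 point per library, ordered by gap. The upper genes are near 0 in most other libraries, while most lower genes are still read in line 2.

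On the lower side, the widest gap was that of Slamf6, a SLAM receptor of lymphocytes. It was at 1.21 and 0.837 FPKM in line 2, at 40.2 and 35.2 FPKM in WT, at 29.5 and 24.9 FPKM in line 1 and at 53.1 and 59.9 FPKM in the Eµ-deleted line (-4.30, SE 0.12, adjusted p = 5.5e-06). The other lines also differed in level from each other, but their lowest library stood well above line 2. Against line 1, which carries the same named deletion, the difference was -3.80 (SE 0.14, adjusted p = 2.27e-05).

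The neighbouring SLAM genes of chromosome 1, between 173518744 and 173873999 of mm9, did not move alike. Cd48, a ligand of SLAM receptors, was at 26.0 and 23 FPKM in line 2 and at 56.8 to 78.4 FPKM elsewhere (-1.43, SE 0.13, adjusted p = 0.000651). Slamf7 was at 7.25 and 5.78 FPKM against 9.29 to 17 FPKM. Ly9 was at 61.7 FPKM in both line 2 libraries against 49.5 to 64.8 FPKM, and Cd84 at 17.3 and 18.1 FPKM against 8.38 to 19.9 FPKM. The values of Ly9 and Cd84 in line 2 thus lay inside the range of the other lines, although both genes flank or separate the lower ones.

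In the list of SLAM, Fc and Ly6 receptors, 6 of 17 tested genes were called lower and 1 higher, with a median of -0.30. The lower ones are Slamf6, Cd48, Slamf7, Slamf1, Cd244 and the inhibitory Fc receptor gene Fcgr2b, and the higher one is Sh2d1b1, an adaptor that binds SLAM receptors, which was higher still in line 1. Without either line 2 library 4 were called lower and 0 higher. Fcgr2b was at 13.3 and 17.1 FPKM in line 2 and at 34.2 to 92.3 FPKM elsewhere, and lost its call without line 2 replicate 1 (adjusted p = 0.177), line 2 replicate 2 (0.117) or WT replicate 2 (0.0530). Slamf1, at 0.909 and 0.948 FPKM against 1.16 to 2.18 FPKM, lost its call in 4 of the 8 fits with a library left out, among them those without either line 2 library (0.241 and 0.219).

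**Figure D4:**
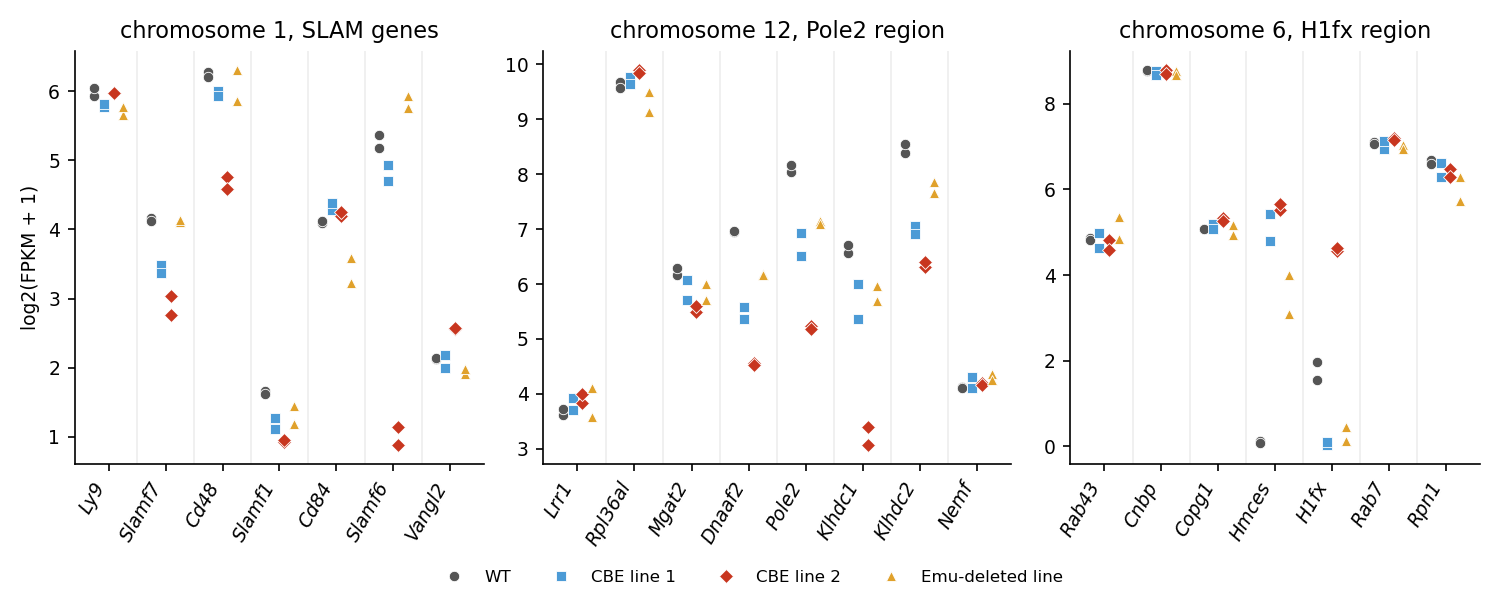
Log2(FPKM + 1) (vertical) by gene in chromosome order for the SLAM genes of chromosome 1, the Pole2 region of chromosome 12 and the H1fx region of chromosome 6, 1 point per library. Line 2 (red) is apart at Slamf6, Cd48, Dnaaf2, Pole2, Klhdc1 and H1fx, and among the other lines at Ly9, Cd84, Lrr1, Nemf, Cnbp and Rpn1.

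Lcp2, which encodes the adaptor SLP-76, was at 0.565 and 0.629 FPKM in line 2, at 5.81 to 11.2 FPKM in line 1 and the Eµ-deleted line and at 21.7 FPKM in both WT libraries (-2.90, SE 0.18). Ifitm1, an interferon-inducible membrane protein gene, was at 28.0 and 21.1 FPKM in line 2 against 72.5 to 246 FPKM. Both kept their calls with any library left out.

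Carhsp1, which encodes an RNA-binding phosphoprotein, was at 3.64 and 3.46 FPKM in line 2 and at 20.3 to 35.2 FPKM elsewhere (-2.53, SE 0.10, adjusted p = 2.2e-05). Emid1, an EMI domain protein, was at 0.302 and 0.546 FPKM in line 2, at 5.11 and 14 FPKM in line 1, at 18.5 and 25.6 FPKM in WT and at 58.8 and 75.3 FPKM in the Eµ-deleted line. Stx7, a syntaxin of late endosome fusion, was at 7.24 and 7.69 FPKM against 19.3 to 27.9 FPKM. Emid1 thus varied widely among the other lines, while Carhsp1 and Stx7 were at a similar level in all 3.

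Of 10 tested T lineage genes 2 were called higher and 3 lower (median -0.04), and without line 2 replicate 1 or 2 the counts were 1 and 1. Ctla4, an inhibitory receptor best known in T cells, was at 9.62 and 5.81 FPKM in line 2 and at 0.15 to 0.98 FPKM elsewhere (2.50, SE 0.18, adjusted p = 0.0002), beside Cd3e, Cd4 and Cd8a at 0.

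Of the adhesion genes 15 were tested, and 2 were called higher and 5 lower (median -0.12). Among the lower ones were Cd97, Itga5, Pecam1 and Itgb2, and the higher ones Itgb3 and Itgam. Itgb3, an integrin chain of platelets and other cells, was at 2.11 and 1.53 FPKM in line 2, at 1.30 and 1.17 FPKM in WT and at 0.463 FPKM or less in the others. Without either line 2 library 1 adhesion gene was called higher and 2 lower.

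Slc2a3, which encodes the glucose transporter GLUT3, was at 0.0521 and 0.0392 FPKM in line 2, at 7 and 7.47 FPKM in WT, at 8.76 and 11.5 FPKM in line 1 and at 15.5 and 18.1 FPKM in the Eµ-deleted line (-3.49, SE 0.12, adjusted p = 1.08e-05). It was the 1 gene lost from line 2 at the levels set above. Of the glycolysis and hypoxia genes, 4 of 33 were called higher and 3 lower (median 0.18). Slc16a3, the lactate exporter MCT4, was at 10.3 and 12.1 FPKM in line 2 against 0.121 to 5 FPKM, with its call lost without either line 2 library (adjusted p = 0.0628 and 0.0820). For this list 1 gene, a lower one, was called without either line 2 library, 15 (11 higher) without Eµ replicate 1, and 11 with the replicate block.

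On chromosome 12, between 70290825 and 70411674 of mm9, 4 nearby genes were called lower. Pole2 and Klhdc1 were named by their gaps, and Dnaaf2 and Klhdc2 were added as neighbours. Pole2, a subunit of the replicative DNA polymerase epsilon, was at 36.6 and 35.4 FPKM in line 2, at 262 and 285 FPKM in WT, at 90.1 and 121 FPKM in line 1 and at 141 and 135 FPKM in the Eµ-deleted line (-2.10, SE 0.12, adjusted p = 7.85e-05). Klhdc1, a kelch repeat protein, was at 7.37 and 9.60 FPKM in line 2 against 40.0 to 104 FPKM. Dnaaf2, an assembly factor of axonemal dynein, was at 22.5 and 22 FPKM against 40.3 to 124 FPKM, and Klhdc2 at 78.4 and 83.5 FPKM against 120 to 373 FPKM. The order of the lines was the same at all 4 genes, with line 2 lowest, line 1 next, then the Eµ-deleted line and WT highest, apart from an overlap of line 1 and the Eµ-deleted line at Klhdc1.

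Neighbours of these 4 genes were not called. Nemf was at 17.3 and 16.9 FPKM in line 2 and at 16.2 to 19.5 FPKM elsewhere, Lrr1 at 13.2 and 15.1 FPKM against 11 to 16.2 FPKM. Mgat2 was kept, at 43.9 and 47.5 FPKM against 51.1 to 77.2 FPKM, with WT highest, and missed the threshold (-0.44, adjusted p = 0.0679). The transcript 9330151L19Rik, between Dnaaf2 and Pole2, was at 0.861 and 1.32 FPKM in line 2 and at 1.06 to 5.5 FPKM elsewhere (-0.76, adjusted p = 0.106). The calls of Pole2, Klhdc1, Klhdc2 and Dnaaf2 held in all 8 fits with a library left out.

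Cdkn2a, which encodes the cell cycle inhibitor p16 and the p53 activator p19Arf, was at 381 and 371 FPKM in line 2, at 143 and 144 FPKM in WT, at 17.4 and 26.8 FPKM in line 1 and at 20.1 and 26.5 FPKM in the Eµ-deleted line (3.14, SE 0.17, adjusted p = 6.7e-05). Cdkn2b, the gene of p15 next to it, was at 1.90 and 1.88 FPKM in line 2, at 16.5 and 18.4 FPKM in WT, at 4 and 9.45 FPKM in line 1 and at 8.49 and 13.3 FPKM in the Eµ-deleted line. These neighbours went opposite ways in line 2. The call of Cdkn2b was lost without either line 2 library (adjusted p = 0.0617 and 0.0629). Mtap on the other side of Cdkn2a was at 55.3 and 47.1 FPKM in line 2 and at 41.6 to 61.6 FPKM elsewhere, with a difference of 0.00 on the log2 scale.

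Cdkn1a, the p53 target that encodes the inhibitor p21, was at 5.32 and 8.92 FPKM in line 2 and at 22.8 to 58.6 FPKM elsewhere (-2.18, SE 0.28, adjusted p = 0.00329). Ccng1, another p53 target, was at 16.2 and 16.1 FPKM against 25.7 to 49.7 FPKM (-1.29, SE 0.14). Trp53 itself was not called, at 92.6 and 93.4 FPKM in line 2 against 81.0 to 93.3 FPKM (0.11, adjusted p = 0.357). The ranges of Trp53 overlapped, while both targets stood apart in every library.

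Among p53, its regulators and targets 5 of 23 tested genes were called lower and 3 higher, with a median of -0.29. The lower ones are Cdkn1a, Ccng1, Phlda3, Bax and Aen, and the higher ones Pmaip1, Gadd45a and Sesn1. Without either line 2 library 3 were called lower and 0 higher, and without WT replicate 1 or 2 the calls were 3 and 2 or 4 and 1. Of BCL2 family survival and death genes, 3 of 21 were called higher and 2 lower (median -0.13; 2 and 0 without either line 2 library, 8 calls with the replicate block).

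Among genes that sense cytosolic DNA or drive inflammatory death, 5 of 16 were called lower. Aim2, the sensor that builds an inflammasome on DNA, was at 0.0229 and 0.0631 FPKM in line 2, at 1.67 and 1.78 FPKM in WT, at 22.3 and 19.8 FPKM in line 1 and at 10.4 and 11.3 FPKM in the Eµ-deleted line (-3.10, SE 0.08, adjusted p = 5.5e-06). Ripk3, the kinase of necroptosis, was at 1.45 and 1.02 FPKM in line 2, at 5.07 and 2.99 FPKM in WT and at 9.06 to 23.9 FPKM in the others. Mlkl, the protein that Ripk3 acts on, was higher, at 3.42 and 4.07 FPKM against 0.504 to 2.61 FPKM. Of the 16 tested genes 1 was called higher (median -0.29), and the counts of lower and higher calls were 3 and 1 without line 2 replicate 1, 2 and 1 without line 2 replicate 2 and 3 and 1 without WT replicate 2.

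Of 48 interferon response genes 6 were called lower and 1 higher (median -0.09), a share of 14.6% beside 13.8% of all genes, with 2 lower and 0 higher without either line 2 library and 2 lower and 1 higher without either WT library. Oas1a, a sensor of double-stranded RNA, was at 0.0264 and 0.0631 FPKM in line 2, at 0.0471 and 0.039 FPKM in line 1, at 1.31 and 0.918 FPKM in the Eµ-deleted line and at 3.15 and 2.81 FPKM in WT. Both CBE lines were thus near 0 for Oas1a.

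Antigen presentation genes were uneven. Ifi30, a lysosomal thiol reductase that prepares antigens for class II molecules, was at 117 and 119 FPKM in line 2, at 24.6 and 29.0 FPKM in line 1, at 9.63 and 10.9 FPKM in the Eµ-deleted line and at 2.52 and 1.58 FPKM in WT (3.60, SE 0.14, adjusted p = 1.57e-05). It was the 1 higher gene among 13 tested class II genes, of which 3 (H2-Oa, H2-Ab1 and H2-Eb2) were called lower (median -0.74). With the replicate block 7 were lower, without line 2 replicate 1 and 2 the lower calls were 1 and 0, and without line 1 replicate 1 and 2 they were 7 and 6. H2-Ab1 was at 2.76 and 2.0 FPKM in line 2, below line 1 and the Eµ-deleted line but above WT, at 0.846 and 0.315 FPKM.

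Xbp1, a transcription factor of plasma cells, was at 17.8 and 18 FPKM in line 2, at 32.1 and 37.7 FPKM in line 1, at 49.3 and 60.2 FPKM in the Eµ-deleted line and at 109 and 101 FPKM in WT (-1.66, SE 0.11, adjusted p = 0.000132). Mzb1, a chaperone of immunoglobulin secretion, was at 488 and 397 FPKM against 699 to 1379 FPKM, with its call lost without line 2 replicate 2 (adjusted p = 0.0750). Of 20 genes of later B cells and plasma cells 3 were called lower and 1, Sdc1, higher (median -0.04), with 2 lower without line 2 replicate 1, 1 without line 2 replicate 2, 2 without WT replicate 1 and 7 calls with the replicate block or without line 1 replicate 2.

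Of 44 early B lineage factors 7 were called higher and 2 lower (median 0.05), and without a line 2 library 1 call was left in each case, with 2 and 1 without WT replicate 1 and 2. Pax5 was at 62.5 and 60.7 FPKM in line 2 and at 38.3 to 65.8 FPKM elsewhere (0.39, adjusted p = 0.108, and 0.0453 with the replicate block or 0.0355 without Eµ replicate 2). Ebf1 was at 46.9 and 37.7 FPKM against 36.9 to 64.5 FPKM (-0.14, adjusted p = 0.513). Il7r, the gene of the interleukin 7 receptor chain, was at 41 and 27.9 FPKM against 28.8 to 71.2 FPKM (-0.39, adjusted p = 0.483). None of these 3 genes separated line 2 from the rest.

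Bach2, a repressor of plasma cell fate, was kept and called at 8.97 and 7.41 FPKM against 3.41 to 5.85 FPKM, with its call lost in 5 of 8 fits with a library left out. Of 40 surface and signalling genes of pro-B and pre-B cells 2 were called higher and 4 lower (median -0.09), with 1 and 0 without line 2 replicate 1, 2 and 0 without replicate 2, 2 and 1 without WT replicate 1, and 11 calls with the replicate block. Blk, a Src family kinase, was higher at 162 and 127 FPKM against 65.7 to 111 FPKM, a call lost without line 2 replicate 1 (adjusted p = 0.0978). Vpreb2, at 1108 and 1101 FPKM against 1557 to 2209 FPKM, has a near-identical copy in Vpreb1, so its value is uncertain.

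Of the V(D)J recombination genes, Rag2, at 3.07 and 1.98 FPKM, and Dntt, the gene of terminal transferase, at 90.2 and 58.0 FPKM, were not called (adjusted p = 0.123 and 0.283, and 0.0306 for Dntt with the replicate block). With a pseudocount of 0.1 Rag1 and Rag2 were called higher (adjusted p = 0.0382 and 0.00869), while WT held almost no read of either gene. Line 1 and the Eµ-deleted line overlapped line 2 for Rag1, and for Rag2 line 1 overlapped it and the Eµ-deleted line was above it.

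Of genes with parent-of-origin expression 4 of 18 were called lower and 2 higher (median -0.04), with 3 and 1 without either line 2 library. Grb10, an adaptor that restrains growth factor signalling, was at 0.464 and 0.757 FPKM in line 2 and at 2.40 to 12.6 FPKM elsewhere (-2.05, SE 0.20, adjusted p = 0.000885). Its neighbour Ddc, the enzyme of dopamine and serotonin synthesis, was at 1.81 and 1.54 FPKM against 2.68 to 29.2 FPKM. Peg13, a noncoding transcript of chromosome 15, was at 1.14 and 1.27 FPKM against 2.94 to 7.55 FPKM. Zrsr1 was at 0.0207 and 0.0267 FPKM against 1.06 to 2.24 FPKM, and lost its call without either line 2 library (adjusted p = 0.0722 and 0.0732).

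Among Notch and Wnt genes 6 of 26 were called higher and 2 lower (median 0.12). Tcf7, the Wnt effector TCF1, was at 4.40 and 4.70 FPKM in line 2, at 1.97 to 3.03 FPKM in line 1 and the Eµ-deleted line and at 0.0491 and 0.0257 FPKM in WT (1.33, SE 0.12, adjusted p = 0.000643). The Wnt feedback genes Axin2 and Nkd2 were at 2.29 and 2.30 FPKM against 1.64 FPKM or less, and at 5.82 and 5.83 FPKM against 0.287 to 4.06 FPKM. These 3 genes were the called higher ones without either line 2 library, with 0 lower. Without either WT library 3 were higher and 1 lower, and 13 were called with the replicate block.

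Of ERK feedback genes 3 of 30 were called higher and 0 lower (median 0.05), a share of 10% beside 13.8% of all genes. Spry1, a Sprouty inhibitor of receptor tyrosine kinase signalling, was at 11.2 and 10.9 FPKM in line 2 and at 4.15 to 6.39 FPKM elsewhere (0.95, SE 0.08, adjusted p = 0.000561). Spry1 was the 1 gene of this list left without either line 2 library, and 5 were called without Eµ replicate 2. Dusp4, a phosphatase of MAP kinases, was at 13 and 16.2 FPKM against 3.30 to 11.6 FPKM and lost its call in those fits (adjusted p = 0.0797 and 0.153).

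Among CTCF and cohesin genes, which matter here because the deleted elements bind CTCF, 1 of 16 was called (median 0.10). Wapal, the gene of the factor that releases cohesin from DNA, was at 44.4 and 44.3 FPKM in line 2, at 27.3 and 30.7 FPKM in WT, at 22.1 and 20.4 FPKM in line 1 and at 25.5 and 29.0 FPKM in the Eµ-deleted line (0.77, SE 0.09, adjusted p = 0.00178). Its call held with any library left out, and 3 genes of the list were called without Eµ replicate 1 or with the replicate block. Ctcf was at 74.0 and 65.0 FPKM in line 2 against 58.9 to 85.1 FPKM (-0.04, adjusted p = 0.887).

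Of 37 Polycomb, DNA methylation and TET genes 1 was called higher and 1 lower (median -0.04; 5 calls with the replicate block). Tet2, a dioxygenase that oxidises methylated cytosine, was at 2.74 and 2.55 FPKM against 0.963 to 1.54 FPKM, with its call lost without line 2 replicate 1 (adjusted p = 0.0523). Ring1, of Polycomb complex PRC1, was at 9.16 and 9.42 FPKM against 9.81 to 15.9 FPKM, with its call lost in 4 of 8 fits. The list had 0 calls without line 2 replicate 1, 1 without line 2 replicate 2 or either WT library, and 4 without Eµ replicate 1.

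For DNA replication and S phase, 14 of 36 tested genes were kept as higher and 0 as lower, where 11.5 and 7.4% of all genes were. Of the 36 tested, 4 were called higher (Ccne1, Rfc4, Rfc1 and Prim1) and 0 lower, with a median of 0.23. Pole2, the polymerase epsilon subunit called lower above (-2.10), is not on this list, so the absence of lower genes holds for the listed genes only. Ccne1, the gene of cyclin E1, was at 32.0 and 30.1 FPKM in line 2 against 17.3 to 24.6 FPKM (0.62, SE 0.07, adjusted p = 0.00188, and 0.0572 without line 2 replicate 1). The list had 0 and 1 calls without line 2 replicate 1 and 2, and 9 with the replicate block or without Eµ replicate 1. The called share was 11.1%, beside 13.8% of all genes.

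Of 29 mitosis genes limma called 0, with 4 at an unadjusted p under 0.05 and 3 calls with the replicate block (median -0.01). Of 17 genes of the MYC network it called 0, with 0 at that unadjusted p and 1 call with the block (median 0.17). Of 23 housekeeping genes it called 0, with 1 at that unadjusted p and 1 call without Eµ replicate 1 (median 0.04). Of 57 replication-dependent histone genes 2 were called lower and 0 higher (median -0.21), with 0 calls without either line 2 or either WT library and 4 without Eµ replicate 1. Of 17 S100, annexin and galectin genes 5 were called lower and 1, S100a1, higher (median -0.32; 12 calls with the replicate block). Eicosanoid and lipid genes had 5 higher and 2 lower of 16 (median 0.03), with Lpcat2 at 3.61 and 3.86 FPKM in line 2, at 1.29 to 1.88 FPKM in line 1 and the Eµ-deleted line and at 0 in WT. Without line 2 replicate 1 and 2, 3 and 4 of these lipid genes were called.

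Kept lower genes were unevenly spread over chromosomes. They made up 19.8% of genes passing the filter on chromosome 15, 18% on chromosome 18, 16.3% on chromosome 13 and 13.5% on chromosome 19, against 7.4% over all autosomes. These 4 chromosomes held 14.5% of the genes and 33.0% of the lower ones, 248 genes of which 143 were called. Over all autosomes 377 of the 751 kept lower genes were called, 50.2%. On chromosome 3 the share was 2.23%. The median difference of all genes was -0.10, -0.26, -0.09 and -0.11 on the log2 scale on chromosomes 15, 18, 13 and 19, and 0.01 to 0.08 on each other autosome.

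The single comparisons differed by chromosome. On chromosome 15 the median was -0.11 against line 1, -0.06 against WT and -0.10 against the Eµ-deleted line. On chromosome 18 it was -0.47 against line 1, -0.30 against WT and -0.01 against the Eµ-deleted line, and on chromosome 19 0.02, -0.39 and 0.01. On chromosome 13 it was -0.15, -0.05 and -0.03. Of 25 runs of at least 3 neighbouring lower genes, 15 lay on chromosomes 13 and 15, and 30 of their 54 genes were called, where 50.2% of all kept lower genes were. DNA copy number was not measured.

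**Figure D5:**
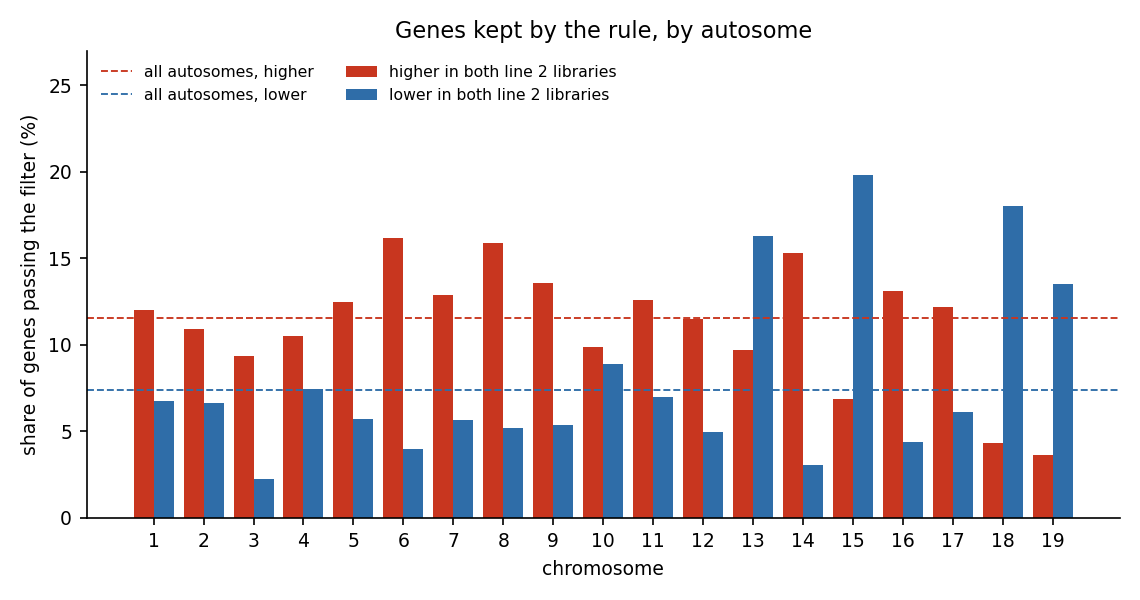
Share of genes passing the filter (vertical, percent) that were higher (red) or lower (blue) in both line 2 libraries, by autosome, with dashed lines for all autosomes (11.5 and 7.4%). The lower share is 13.5 to 19.8% on chromosomes 13, 15, 18 and 19, and the higher share is largest on chromosome 6 at 16.2%.

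In the longest run of chromosome 15, Rac2, a small GTPase of blood cells, was at 128 FPKM in both line 2 libraries against 169 to 214 FPKM, and Cyth4 was at 7.91 and 8.94 FPKM against 11.1 to 20.3 FPKM. Both calls were lost without either line 2 library (adjusted p = 0.143 and 0.142 for Rac2, and 0.167 and 0.0953 for Cyth4). In the longest run of chromosome 13, from Dip2c to Lgals8, 2 of 6 genes were called. These differences were small beside those of Pcdhgc3 on chromosome 18, a protocadherin, at 0.556 and 0.501 FPKM in line 2 against 4.58 to 9.20 FPKM (-2.29, SE 0.08, adjusted p = 1.11e-05).

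The same rule applied to the other lines kept 1320 genes for line 1 (13%), 1659 for the Eµ-deleted line (16.4%) and 3276 for WT (32.3%), against 1922 for line 2 (18.9%). WT was thus the line that stood apart by the most genes. Against line 1 alone, 524 genes were called higher in line 2 (5.16%) and 507 lower (5%), against the Eµ-deleted line 769 (7.58%) and 568 (5.6%), and against WT 1065 (10.5%) and 837 (8.25%). With quantile scaling the counts against WT were 976 and 1162. The 3 comparisons share the line 2 libraries.

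The numbers of calls were lowest without line 2 libraries, at 273 and 242 against line 1, 809 and 808 against WT and 423 and 407 against the Eµ-deleted line, and were 1673, 2910 and 2368 with the replicate block. Without line 1 replicate 1 there were 569 calls against line 1, without Eµ replicate 1 and 2 there were 2296 and 871 against the Eµ-deleted line, and without WT replicate 1 and 2 the calls were 665 and 659, 900 and 837, and 863 and 858 in these 3 comparisons. Of the 1171 higher kept genes 323 (27.6%) were called against line 1, 461 (39.4%) against WT and 424 (36.2%) against the Eµ-deleted line. Of the 751 lower ones 209 (27.8%), 317 (42.2%) and 272 (36.2%) were called. The rule chose these genes to lie beyond every library of each line, so shares above those of all genes are built in. The library nearest to line 2 came from line 1 for 494 of the higher and 293 of the lower genes, from WT for 344 and 217, and from the Eµ-deleted line for 333 and 241.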

How the data were processed

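RNA of 8 libraries from 4 lines was sequenced as single 75-base reads (TruSeq stranded mRNA, NextSeq 500, target 20 to 30 M reads), per the labels' protocols. TopHat, Cufflinks and mm9 are named in the submitters' processing notes, without versions. The authors deposited FPKM per gene with confidence limits, per the file headers, with 24459 entries and 23929 symbols per library. Values of the 277 symbols at several loci were added up. The 21 symbols not marked OK in every library were dropped. The strand setting of the counting is not stated in the sources at hand.

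Values were tested as log2(FPKM + 1), with genes at 1 FPKM or more in at least 2 libraries, by limma 3.58.1 (R 4.3.3) with a mean-variance trend, 1 coefficient per line and Benjamini-Hochberg adjustment over all tested genes (threshold 0.05, 4 residual and 2.65 prior degrees of freedom). All adjusted p-values come from limma. Line 2 was set against the mean of the other 3 line means and against each line. Tables and plots used Python 3.11.15, pandas 2.3.3, numpy 2.4.6 and matplotlib 3.10.9. On simulated data for line 2 against the other 3 lines (10479 genes), 80.6, 100 and 100% of genes changed by 0.5, 1 and 2 on the log2 scale were recovered, with 17 false calls. The simulation gave all lines the same mean per gene, with normal noise and no pairing. Its spread was set by the mean alone, so genes of like level had the same spread. Changes were placed only in genes with a mean above 2 on the log2 scale. These figures thus do not cover differences among the other lines, genes near 0 or genes with a wide spread for their level. Libraries with the same number deviated together in all 6 pairs of lines (correlation 0.279 to 0.502), so the numbers were taken to pair the libraries, from the data and not from the labels. The reported fit did not use this pairing, which entered only in the alternative with the replicate block. Alternatives were other pseudocounts, filters and scalings, other variance settings, line means, the replicate block and each library left out.

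Named were, among called kept genes, those with the 15 widest gaps each way (passing over unnamed transcript models) and up to 5 genes of each list. The genes at 5 FPKM or more in line 2 and under 0.5 FPKM elsewhere or the reverse, those of the 5 longest runs of at least 3 neighbouring kept genes, and Rag1, Rag2, Dntt, Ctcf, Pax5, Ebf1, Il7r, Trp53 and Cdkn2a were always named. Other genes, among them neighbours at a named locus, called genes of a list outside the rule, marker genes and those at the rule's edge, were chosen after their values were seen. Some genes that this rule names are not reported here. The members and lists were chosen with earlier results of these data known.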

Additional observations from a re-analysis of the deposited data

Results flagged for a closer look

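Of the 139 named genes, less those not reported here, 12 differed from WT in opposite directions in the CBE lines, and differed between line 2 and line 1, by limma. The share over all genes was not counted, so the 12 do not show that opposite changes are unusual. Both changes share the WT libraries, and the difference was tested as line 2 minus line 1. All 12 obey the rule, so the direction of line 2 from WT and from line 1 was set by how they were chosen. The limma change from WT was near the threshold for Mlkl in line 2 and for Gm5111 in line 1 (adjusted p = 0.0476 for each). WT itself was low for Mira (0.370 and 0.349 FPKM) and Cdc42ep4 (0.684 and 0.606 FPKM). Line 2 exceeded line 1 by 4.55 on the log2(FPKM + 1) scale for H1fx, which was 2.85 above WT in line 2 and -1.69 from WT in line 1. The difference was 4.06 for Cdkn2a (1.39 and -2.67 from WT), 3.21 for Gm5111 (2.52 and -0.69), 2.78 for Cdc42ep4 (2.07 and -0.71) and 2.21 for Mira (1.76 and -0.44). It was 1.25 for Mlkl (0.52 and -0.73) and 1.03 for Wapal (0.60 and -0.43).

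Line 2 was below line 1 for 5 genes. The difference was -4.40 for Aim2, which was -1.39 from WT in line 2 and 3.01 above it in line 1. It was -3.28 for Ripk3 (-1.15 and 2.14 from WT), -2.53 for Ext1 (-1.84 and 0.69), -1.93 for Ddc (-0.54 and 1.39) and -1.68 for Peg13 (-0.89 and 0.79).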

How the results depend on the processing

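Over all alternatives run, no called named gene changed direction. Of 123 called named genes 62 kept their calls in every fit with a library left out that tested them, and 61 lost it in at least 1. Of 2825 values of named genes under an alternative, 2458 kept their side of the threshold, 352 lost a call and 15 gained one. With line means, 0 genes were called against the other 3 lines and all 123 named calls were lost. With a mean of 5 FPKM or more the calls were 579 against the other lines, 359 against line 1, 1002 against WT and 550 against the Eµ-deleted line. With the replicate block they were 2301, 1673, 2910 and 2368. With a library left out they ran from 337 to 1920, from 242 to 1325, from 808 to 2450 and from 407 to 2296, and the kept genes from 2074 to 2906. The calls summed over the 41 lists fell from 160 to 51 and 52 without line 2 replicate 1 and 2.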
